A study of Mus musculus with 12 samples.

Results

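The proteasome genes of the mouse heart were taken as all genes with a probe whose symbol begins with Psma, Psmb, Psmc, Psmd, Psme, Psmf or Psmg followed by a digit. The pattern held for 67 probes of 44 genes, out of 21910 genes in the table tested. They are 8 alpha subunits and 7 constitutive beta subunits of the core particle, the 3 immunoproteasome subunits Psmb8, Psmb9 and Psmb10, 6 ATPases and 11 other subunits of the regulatory particle, 5 activators or inhibitors of the core, and 3 assembly chaperones. The last gene, Psmc3ip, encodes a meiotic recombination protein and only shares the prefix. In the files the activator subunit Psme2 is named Psme2b-ps, the symbol of a copy of it. The 2 probes of that name lie beside Psme1 on chromosome 14 (mm7), while RefSeq places the copy on chromosome 11, so signal from the gene and its copy cannot be told apart here.

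The proteasome is a barrel of stacked rings that degrades proteins tagged with ubiquitin. Its outer alpha rings control entry, its inner beta rings hold the catalytic sites, and the regulatory particle with its ring of ATPases binds, unfolds and feeds in the substrate. Interferons induce Psmb8, Psmb9 and Psmb10, which take the places of Psmb5, Psmb6 and Psmb7 in newly built particles and favour peptides for presentation on MHC class I. In the heart the proteasome clears damaged and surplus muscle protein.

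RNA was measured in whole hearts of 12 male C57BL/6 mice on one-colour expression arrays, 3 hearts in each of 4 groups. CardioGRKO mice carry a floxed glucocorticoid receptor gene (Nr3c1) and Cre under the αMHC promoter, which is active in cardiomyocytes. Their controls, called GRflox, are littermates with the floxed allele and no Cre, so that loss of the receptor and presence of Cre cannot be told apart. Both genotypes were taken at 1 month and at 2 months of age. The heart also holds endothelial cells, fibroblasts and leukocytes, which keep the receptor in this model, and in whole-heart RNA fewer cells of a type and less RNA per cell cannot be told apart.

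Signals below are levels on the log2 scale relative to the 75th percentile of each array, and a difference of 1 is a doubling. The percentile lay between 885.8 and 1549 units, and 67.5% to 82.2% of probes were well above background. Nr3c1 stood at 1.22 to 1.31 in the cardioGRKO hearts at 1 month against 2.11 to 2.56 in the GRflox hearts, and at 0.86 to 0.96 against 1.99 to 2.15 at 2 months, with averaged difference -1.07 (SE 0.09, adjusted p = 0.0012 in limma). A higher share of probes, 79.4% to 82.2%, was above background on 3 arrays: cardioGRKO heart 1 at 1 month, cardioGRKO heart 3 at 2 months and GRflox heart 2 at 2 months. The cardioGRKO arrays among them shared a slide with no other array and were the only ones of the second scan day. The 3 GRflox hearts of 1 month shared a slide with no other group, and the slide therefore cannot be told apart from the genotype at 1 month.

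Promoter sequences are shown for the 3 immunoproteasome genes and for Psme4, because the description of the knockout turns on them. Each runs 5′ to 3′ from 250 bases before to 50 after the start of the gene in RefSeq (GRCm38.p6). They lie at chr17:34197945-34198244 on the plus strand for Psmb8, chr17:34187281-34187580 on the minus strand for Psmb9, chr8:105938343-105938642 on the minus strand for Psmb10 and chr11:30771525-30771824 on the plus strand for Psme4. Capitals mark a match to TTCNNNGAA (gamma-activated site) in Psmb8, and in Psme4 a match on the opposite strand to TGACNNNGC (antioxidant response element core).
Psmb8: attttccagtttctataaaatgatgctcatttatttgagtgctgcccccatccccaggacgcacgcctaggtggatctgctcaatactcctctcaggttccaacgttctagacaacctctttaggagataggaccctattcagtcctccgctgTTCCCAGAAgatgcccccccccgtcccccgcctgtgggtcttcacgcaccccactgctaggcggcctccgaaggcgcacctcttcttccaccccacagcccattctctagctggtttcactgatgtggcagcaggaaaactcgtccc
Psmb9: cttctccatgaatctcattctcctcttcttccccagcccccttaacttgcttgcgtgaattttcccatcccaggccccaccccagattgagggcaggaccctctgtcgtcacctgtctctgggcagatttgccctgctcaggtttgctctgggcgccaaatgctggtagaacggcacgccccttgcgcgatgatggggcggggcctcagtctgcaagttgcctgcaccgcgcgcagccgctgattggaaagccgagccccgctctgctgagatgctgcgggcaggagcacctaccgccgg
Psmb10: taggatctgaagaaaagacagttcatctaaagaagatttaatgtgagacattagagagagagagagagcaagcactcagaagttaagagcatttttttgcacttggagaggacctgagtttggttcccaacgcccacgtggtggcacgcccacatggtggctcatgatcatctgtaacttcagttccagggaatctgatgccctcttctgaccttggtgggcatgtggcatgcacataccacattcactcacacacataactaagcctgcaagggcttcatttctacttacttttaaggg
Psme4: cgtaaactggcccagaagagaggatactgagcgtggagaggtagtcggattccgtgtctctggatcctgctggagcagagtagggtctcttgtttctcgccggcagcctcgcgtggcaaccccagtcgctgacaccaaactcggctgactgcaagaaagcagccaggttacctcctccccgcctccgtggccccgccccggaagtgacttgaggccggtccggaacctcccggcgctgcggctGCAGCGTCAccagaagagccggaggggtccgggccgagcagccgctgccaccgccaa

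Psmb8 and Psmb9 are neighbours on chromosome 17. The match in Psmb8 began 97 bases before the start, at positions 154 to 162 of the sequence. That in Psme4 began 7 bases before the start and ran across it, at positions 244 to 252. The promoters of Psmb9 and Psmb10 held no match to these motifs, nor to the interferon-stimulated response element core and the glucocorticoid response element, which were also searched on both strands. RefSeq promoters were found for 36 of the 44 genes, 38 promoters in all. The interferon-stimulated core was in 10.5% of them (Psmb3, Psmd4, Psmd9 and Psme1) against 3.44% of all 32851 promoters, and TTCNNNGAA in 5.26% (Psmb8 and Psmd2) against 8.3%. TGACNNNGC was in 15.8% (Psmb5, Psmb6, Psmc6, Psmd12, Psmd9 and Psme4) against 12.4%, and the glucocorticoid response element in none against 0.475%. TTCNNNGAA and the glucocorticoid response element read the same on either strand, and no motif overlapped another in the 4 sequences shown.

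All 44 genes were well above background on all 12 arrays and entered the test. Their signal varied little from heart to heart. The median SD within groups was 0.11 on the log2 scale over the 44 genes, against 0.25 over all genes and 0.13 over the 2695 genes at least as bright as the lower quartile of the proteasome genes. The SD lay below the median of all genes in 41 of the 44. The 3 above it were Psmb9 with 0.32, Psme3 (a nuclear activator of the core) with 0.28 and Psmb8 with 0.26, so that 2 of the 3 immunoproteasome genes were among the most variable members. The lowest SDs belonged to the alpha subunits Psma4 and Psma5, both 0.05.

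**Figure D1:**
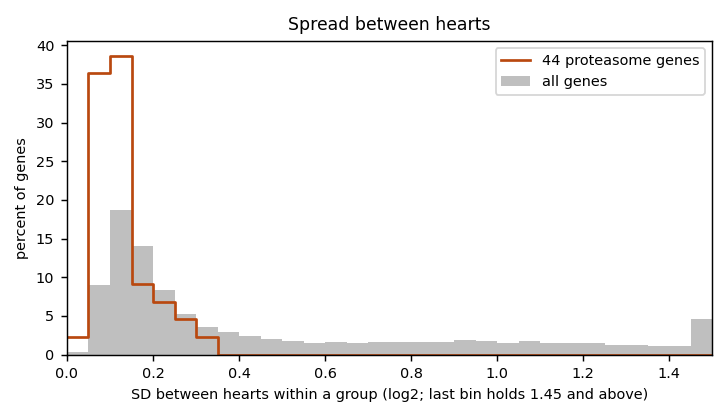
Distribution of the SD between hearts within a group (log2 scale, x axis) as percent of genes (y axis), for all 21910 genes (grey bars) and the 44 proteasome genes (line). The proteasome genes sit at the low end, with a median of 0.11 against 0.25 for all genes.

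Loss of the receptor in cardiomyocytes was compared with control at each age to ask whether the genes of the proteasome respond to it. None of the 44 genes passed at either age. At 1 month 0 of 44 passed an adjusted p of 0.05 in limma, where 0.0274% of all genes passed. An unadjusted p under 0.05 was found for 4 (Psmd13, Psme4, Psmd7 and Psmd9), all lower in cardioGRKO. Over all genes it was found for 6.03% in either direction and 3.06% lower. For Psmd7 the brightest probe differed by -0.31, and 2 other probes by -0.14 and 0.05. At 2 months 0 of 44 passed, against 0.137% of all genes, and 2 had an unadjusted p under 0.05, Psmb10 higher and Psme4 lower, against 7.64%. The median difference, cardioGRKO minus GRflox, was -0.05 at 1 month beside 0.04 over all genes, and -0.03 at 2 months beside 0.03, with 29 and 28 of the 44 genes below 0 (65.9% and 63.6%, against 43.1% and 45.3% of all genes). With quantile normalization the median at 1 month was -0.0036 beside -0.0021 over all genes. Without the 3 arrays that stand apart the median at 2 months was 0.03.

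At each age the 95% interval of every one of the 44 differences lay inside a 2-fold change in either direction. It lay inside 1.5-fold for 38 genes at 1 month and 39 at 2 months. The groups did not overlap for 10 genes at 1 month, 2 higher and 8 lower, where 9.03% of all genes were higher and 9.03% lower without overlap. At 2 months it was 6 genes, 4 higher and 2 lower, against 6.15% and 6.27%. One of the 4, Psmb5, had only 1 usable GRflox heart at that age.

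**Figure D2:**
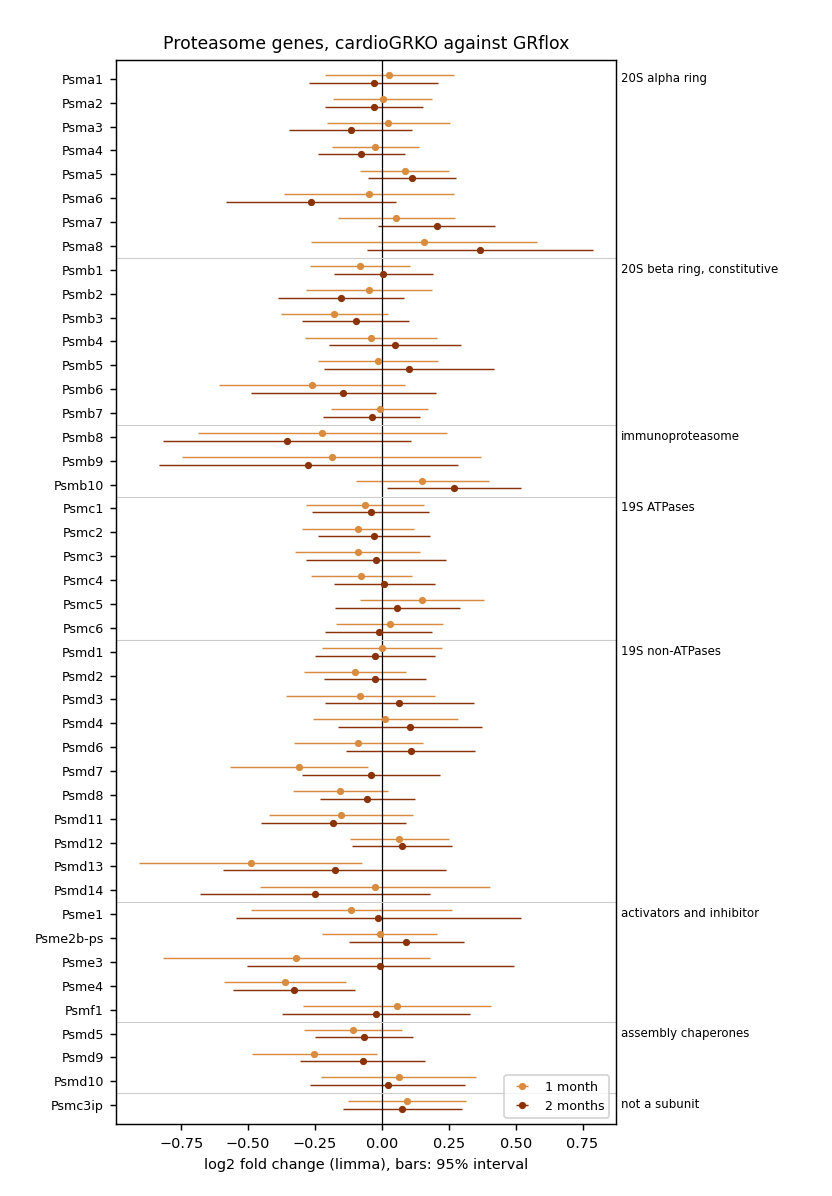
Log2 fold change of cardioGRKO against GRflox hearts (x axis, limma, bars are 95% intervals) for each of the 44 genes, grouped by role, at 1 month and at 2 months (3 hearts per group). Psme4 lies at -0.36 and -0.33, and no gene passed the adjusted test at either age.

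The largest knockout difference averaged over the ages was that of Psme4, which encodes an ATP-independent activator that caps the core particle. Its brightest probe stood at 5.74, 5.62 and 5.57 in GRflox and 5.33, 5.35 and 5.17 in cardioGRKO at 1 month. At 2 months it stood at 5.65, 5.85 and 5.68 in GRflox and 5.26, 5.43 and 5.50 in cardioGRKO. Every cardioGRKO heart lay below every GRflox heart, across both ages. The difference was -0.36 at 1 month (SE 0.10, adjusted p = 0.604 in limma) and -0.33 at 2 months (SE 0.10, adjusted p = 0.394). Averaged over the ages it was -0.35 (SE 0.07, adjusted p = 0.0764, unadjusted p = 0.000848), a level 1.27-fold lower that did not pass. In that average 0.735% of all genes passed, and 0.73% were lower in all 6 cardioGRKO hearts than in all 6 GRflox hearts, as 2 of the 44 proteasome genes were (Psme4 and Psmd13). Each of 8 cardiomyocyte markers, all above background on every array, was centred on its mean over the hearts, and the median taken per heart. At 1 month that median ranged from -0.07 to 0.15 in GRflox and from -0.30 to -0.09 in cardioGRKO, without overlap. At 2 months it ranged from -0.03 to 0.29 and from -0.04 to 0.29. Of these markers 8 lay below 0 at 1 month, 4 at 2 months and 8 in the average, against 43.1%, 45.3% and 43.2% of all genes. The calcium channel gene Ryr2 among them fell in the averaged comparison (-0.44, SE 0.07, adjusted p = 0.0275 in limma). The 6 endothelial markers, all above background on every array, lay below 0 at both ages, with medians of -0.20 and -0.21, and 4 had an unadjusted p under 0.05 in the average while 0 passed. Their centred median per heart ranged from 0.15 to 0.34 in GRflox and -0.07 to 0.16 in cardioGRKO at 1 month. At 2 months it ranged from -0.04 to 0.05 against -0.35 to -0.09, and the genotypes did not overlap. The part of either cell type in the Psme4 difference was not tested.

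Psme4 has 4 probes on chromosome 11 (mm7), the brightest of them A_51_P166198 at 30832174 to 30832233. The second brightest, A_52_P344897 at 30828874 to 30830432, stood at 2.31, 2.15 and 2.09 in GRflox and 1.62, 1.70 and 1.48 in cardioGRKO at 1 month. At 2 months it stood at 2.45, 2.44 and 2.41 in GRflox and 1.90, 1.95 and 1.74 in cardioGRKO, again with no overlap at either age. With that probe in place of the brightest, the averaged difference was -0.58 (SE 0.07) and passed (adjusted p = 0.00882 in limma). A_52_P111438, at 30773060 to 30775104, showed an averaged difference of -0.76 with no overlap at either age. A_51_P478978, at 30791118 to 30791177, was above background on 6 arrays only, and its groups overlapped at 1 month. The call on the brightest probe turned on the setting: of the 12 alternatives that keep it, it passed in 3, with adjusted p from 0.0169 (normexp with quantile normalization) to 0.792 (median centring) in limma. The difference was below 0 in all 14 alternatives, the other probe choices included. With any 1 heart left out it lay between -0.37 and -0.31 and did not pass (adjusted p from 0.104 to 0.193).

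**Figure D3:**
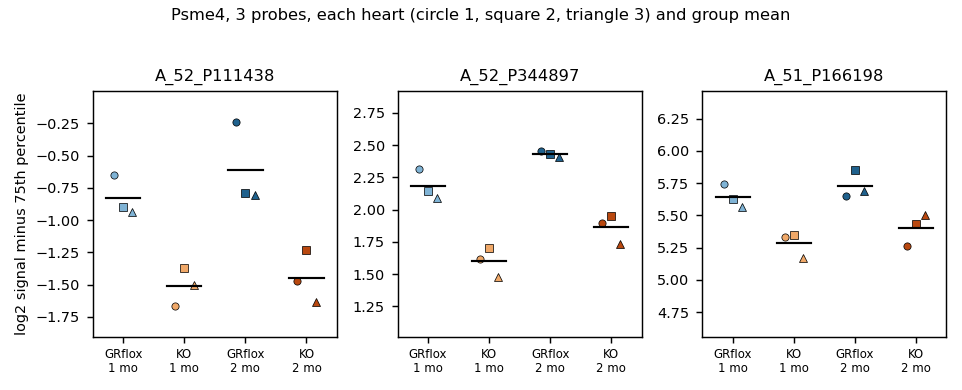
Levels of 3 Psme4 probes above background on all 12 arrays (y axes, log2 signal relative to the array's 75th percentile) by group, with each heart as a point and the group mean as a line. On each probe the 6 cardioGRKO hearts lie below the GRflox hearts of their age.

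In the averaged comparison 0 of 44 genes passed and 3 had an unadjusted p under 0.05 (Psme4, Psmd13 and Psmb10), against 11.6% of all genes. Psmd13, a lid subunit of the regulatory particle, stood at 0.78, 0.69 and 0.57 in GRflox and 0.45, -0.30 and 0.43 in cardioGRKO at 1 month. At 2 months its levels were 0.56, 0.59 and 0.50 in GRflox and 0.43, 0.22 and 0.46 in cardioGRKO. The genotypes did not overlap over the 12 hearts, and cardioGRKO heart 2 of 1 month was far below the others. The differences were -0.49 at 1 month (SE 0.19, adjusted p = 0.767 in limma) and -0.18 at 2 months, and leaving out single hearts gave averaged differences from -0.40 to -0.21.

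None of the inducible subunits passed for the knockout, and their differences were not of one sign. Psmb8, the inducible counterpart of Psmb5, stood at 2.40, 2.88 and 2.35 in GRflox and 2.44, 2.32 and 2.19 in cardioGRKO at 1 month. Its levels at 2 months were 2.08, 2.86 and 2.62 in GRflox and 2.24, 2.04 and 2.21 in cardioGRKO. Heart 2 of the younger and hearts 2 and 3 of the older GRflox mice were high, and the genotypes overlapped at both ages. The differences were -0.22 (SE 0.21, adjusted p = 0.848 in limma) and -0.35 (SE 0.21, adjusted p = 0.812), with intervals from -0.69 to 0.24 and from -0.82 to 0.11. Without GRflox heart 2 of 1 month the first was -0.05. The second was -0.57 without GRflox heart 1 of 2 months and -0.18 without heart 2. A second Psmb8 probe differed by -0.32 at 1 month, where the genotypes did not overlap, and by -0.28 at 2 months, where they did. Within the slide that held both genotypes of 2 months Psmb8 differed by -0.47, Psmb9 by -0.60, Psmb10 by 0.27 and Psme4 by -0.34, with 1 GRflox and 2 cardioGRKO hearts.

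Psmb9, which replaces Psmb6, stood at 1.68, 2.16 and 1.78 in GRflox and 1.87, 1.66 and 1.52 in cardioGRKO at 1 month. At 2 months it stood at 1.31, 2.29 and 2.17 in GRflox and 1.54, 1.60 and 1.82 in cardioGRKO. The same GRflox hearts as for Psmb8 were high and the first GRflox heart of 2 months was the lowest of all 12. The differences were -0.19 and -0.27 (SE 0.25 for both, adjusted p = 0.878 and 0.929 in limma), and the genotypes overlapped at both ages. Without GRflox heart 2 of 1 month the first was -0.04. Without GRflox heart 1 of 2 months the second was -0.58, and without heart 2 or 3 it was -0.09 or -0.15.

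Psmb10, which replaces Psmb7, went the other way in value. It stood at 4.69, 4.93 and 4.93 in GRflox and 4.98, 4.97 and 5.06 in cardioGRKO at 1 month, and at 4.66, 5.0 and 4.86 against 5.21, 5.06 and 5.07 at 2 months. Every cardioGRKO heart was above every GRflox heart of its age. The differences of 0.15 (SE 0.11, adjusted p = 0.841 in limma) and 0.27 (SE 0.11, adjusted p = 0.600) did not pass, nor did their average of 0.21 (SE 0.08, adjusted p = 0.337). The difference at 1 month was above 0 in 14 of 15 alternatives and -0.08 with each array centred on its median.

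**Figure D4:**
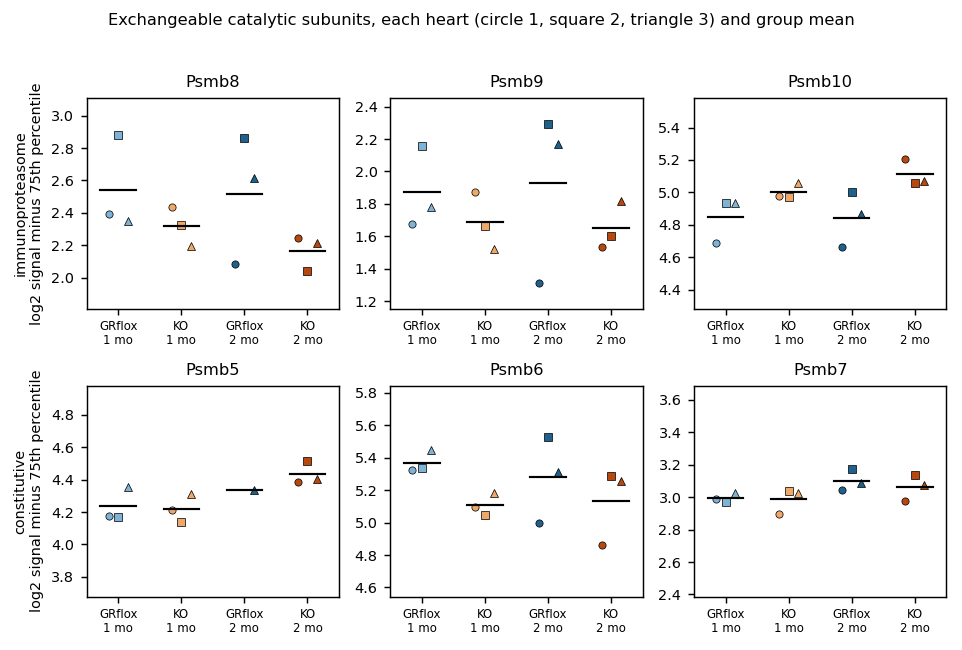
Levels of the inducible subunits Psmb8, Psmb9 and Psmb10 (top) and of the constitutive subunits they replace, Psmb5, Psmb6 and Psmb7 (bottom), as log2 signal relative to the array's 75th percentile (y axes, each spanning 1.3 units). Points are hearts and lines are group means. Psmb8 and Psmb9 are high in the same GRflox hearts, and cardioGRKO hearts lie above the GRflox hearts of their age for Psmb10.

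The constitutive catalytic subunits each varied less between hearts than Psmb8 and Psmb9. Psmb5, the chymotrypsin-like subunit, stood at 4.18, 4.17 and 4.36 in GRflox and 4.21, 4.14 and 4.31 in cardioGRKO at 1 month. At 2 months it stood at 4.34 in the one GRflox heart with a usable spot and at 4.39, 4.52 and 4.41 in cardioGRKO. The spots of Psmb5 and Psme1 on the arrays of GRflox hearts 1 and 2 of 2 months were uneven and left out of the fit, so both genes have 1 control value at that age. The Psmb5 differences were -0.01 and 0.10 (SE 0.10 and 0.14).

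Psmb6, the caspase-like subunit, stood at 5.32, 5.34 and 5.45 in GRflox and 5.10, 5.04 and 5.19 in cardioGRKO at 1 month, without overlap. At 2 months the genotypes overlapped, with 5.0, 5.53 and 5.31 against 4.86, 5.29 and 5.26. The differences were -0.26 and -0.14 (SE 0.15 for both, adjusted p = 0.841 and 0.948 in limma). Psmb7, the trypsin-like subunit, differed by -0.01 and -0.04 (SE 0.08), with levels of 2.99, 2.97 and 3.03 against 2.9, 3.04 and 3.02 at 1 month and 3.04, 3.18 and 3.09 against 2.97, 3.14 and 3.08 at 2 months.

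Setting each inducible subunit against the one it replaces, after centring each gene on its mean over the hearts, gave a knockout difference for Psmb8 minus Psmb5 of -0.21 at 1 month and -0.55 at 2 months, the latter against 1 control heart. Psmb9 minus Psmb6 gave 0.07 and -0.13, and Psmb10 minus Psmb7 gave 0.16 and 0.31. The 3 exchanges thus differed in sign at both ages, and none was tested beyond these values. For Psmb10 minus Psmb7 the cardioGRKO hearts of 2 months ranged from 0.01 to 0.32 and the GRflox hearts from -0.30 to -0.09.

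Among the activators, Psme1 encodes a subunit of the interferon-inducible cap that works with the immunoproteasome. It stood at 4.79, 4.86 and 5.33 in GRflox and 4.82, 4.80 and 5.01 in cardioGRKO at 1 month, and at 5.11 in the one usable GRflox heart and 4.98, 5.22 and 5.10 in cardioGRKO at 2 months. The differences were -0.11 (SE 0.16) and -0.01 (SE 0.23). Its partner Psme2b-ps stood at 5.90, 5.72 and 5.65 in GRflox and 5.73, 5.76 and 5.76 in cardioGRKO at 1 month, and at 5.62, 5.79 and 5.79 against 5.90, 5.86 and 5.71 at 2 months. Its differences were -0.01 and 0.09 (SE 0.10 for both), and the genotypes overlapped throughout. Psme3 stood at 2.48, 2.34 and 2.19 in GRflox and 2.02, 2.03 and 1.99 in cardioGRKO at 1 month, without overlap, and at 1.79, 2.67 and 2.64 against 2.19, 2.60 and 2.30 at 2 months, where GRflox heart 1 was the lowest of all. It differed by -0.32 and -0.01 (SE 0.22), and the inhibitor Psmf1 by 0.06 and -0.02 (SE 0.16).

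The alpha subunits had median differences of 0.03 at 1 month and -0.03 at 2 months, and the largest were 0.16 and 0.37 for Psma8, a form of the alpha ring known from the testis, whose difference at 1 month kept its sign in 12 of 15 alternatives. The 7 constitutive beta subunits were all below 0 at 1 month, with a median of -0.05, and 4 of 7 were below 0 at 2 months, with a median of -0.04. The 6 ATPases lay between -0.09 and 0.15 at 1 month and between -0.04 and 0.06 at 2 months. The 11 other subunits of the regulatory particle had medians of -0.09 and -0.03, with the deubiquitinase Psmd14 at -0.25 at 2 months, where cardioGRKO heart 1 stood at 2.83 and the other 11 hearts between 3.49 and 3.74, and a second Psmd14 probe at -0.17. The assembly chaperones Psmd5, Psmd9 and Psmd10 had medians of -0.11 and -0.07.

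A change of the knockout effect between the ages was not detected. In limma 0 of 44 genes passed the test of that difference, 0 had an unadjusted p under 0.05, and 0% of all genes passed against 1.35% at the unadjusted level. The largest values, 2 months minus 1 month, were 0.31 for Psmd13 and Psme3 and -0.23 and -0.22 for Psmd14 and the alpha subunit Psma6. For Psme4 the difference was 0.03 with an interval from -0.29 to 0.36, for Psmb8 -0.13, for Psmb9 -0.09 and for Psmb10 0.12. Intervals lay inside a 2-fold change for 43 of the 44 genes, with Psme3 outside.

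Age was compared within each genotype and averaged over both. The GRflox hearts of 1 month lay on a slide of their own and those of 2 months on other slides, so age and slide cannot be told apart in GRflox. Between 1 and 2 months 38 of the 44 genes were higher in the average, with a median of 0.09 beside 0.12 over all genes. Of the 44, 13.6% lay below 0, against 34.3% of all genes. The averaged test passed for 3: the beta subunit Psmb1, the regulatory subunit Psmd12 and Psma8. Within GRflox 0 of 44 genes passed in limma, against 2.1% of all genes, and within cardioGRKO 0 of 44, against 0.721%. With an unadjusted p under 0.05 there were 4 genes in GRflox, all higher, against 15.9% of all genes in either direction and 8.77% higher. In cardioGRKO there were 10, all higher, against 15.1% and 8.24%. The groups did not overlap for 13 genes in GRflox and 15 in cardioGRKO, all higher, where 14.4% of all genes were higher without overlap in each genotype. In the average 3 of 44 passed, all higher, against 8.85% of all genes in either direction and 4.26% higher, and 11 had an unadjusted p under 0.05, all higher, against 25.5% and 14.8%. The share of proteasome genes that passed is near that of all genes.

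Psmb1 stood at 4.18, 4.26 and 4.40 in GRflox and 4.15, 4.18 and 4.28 in cardioGRKO at 1 month, and at 4.5, 4.53 and 4.52 against 4.57, 4.45 and 4.54 at 2 months. All 6 older hearts lay above all 6 younger ones, which held for 3.15% of all genes. The averaged rise was 0.28 (SE 0.06, adjusted p = 0.0206 in limma), or 1.21-fold. Psmd12 showed the same order of hearts, with 5.08, 5.04 and 5.24 in GRflox and 5.15, 5.17 and 5.24 in cardioGRKO at 1 month and 5.34, 5.44, 5.30 and 5.42, 5.41, 5.48 at 2 months. Its rise was 0.25 (SE 0.06, adjusted p = 0.0323), and 2 further probes gave 0.29 and 0.21, the first with an adjusted p of 0.0919.

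Psma8 stood at -2.52, -2.89 and -2.52 in GRflox and -2.28, -2.47 and -2.70 in cardioGRKO at 1 month. At 2 months it stood at -2.46, -2.15 and -1.76 in GRflox and -1.84, -1.71 and -1.71 in cardioGRKO. GRflox heart 1 of 2 months lay within the range of the younger hearts. The averaged rise of 0.62 (SE 0.13, adjusted p = 0.0216 in limma), or 1.54-fold, was the largest among the 44 genes.

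With the slide as a random block the 3 genes passed (Psma8 0.61, Psmb1 0.28 and Psmd12 0.25, adjusted p = 0.0295, 0.0292 and 0.0409 in limma). The rises have to be read against a shift of the whole array. The median age difference over all genes was 0.12 in GRflox, 0.10 in cardioGRKO and 0.12 in the average, and over the 44 genes it was 0.10, 0.11 and 0.09. Centring each array on its median in place of the 75th percentile moved the averaged median of all genes to -0.04 and that of the 44 genes to -0.06. The averaged difference then was 0.47 for Psma8, 0.12 for Psmb1 and 0.09 for Psmd12, and none of them passed. Without cardioGRKO heart 1 of 1 month and cardioGRKO heart 3 of 2 months, the arrays of the second scan day, the differences were 0.67, 0.26 and 0.23 in the same order and 0 of the 3 passed in a fit with fewer arrays. Leaving out GRflox heart 2 of 2 months as well gave 0.67, 0.26 and 0.21, and again 0 passed. With 1 heart left out at a time the differences lay between 0.53 and 0.71, 0.25 and 0.31, and 0.23 and 0.28. Of the 44 genes, 0 then passed without GRflox heart 2 of 1 month. A single gene passed without cardioGRKO heart 1 or heart 2 of 1 month, or without cardioGRKO heart 2 of 2 months.

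**Figure D5:**
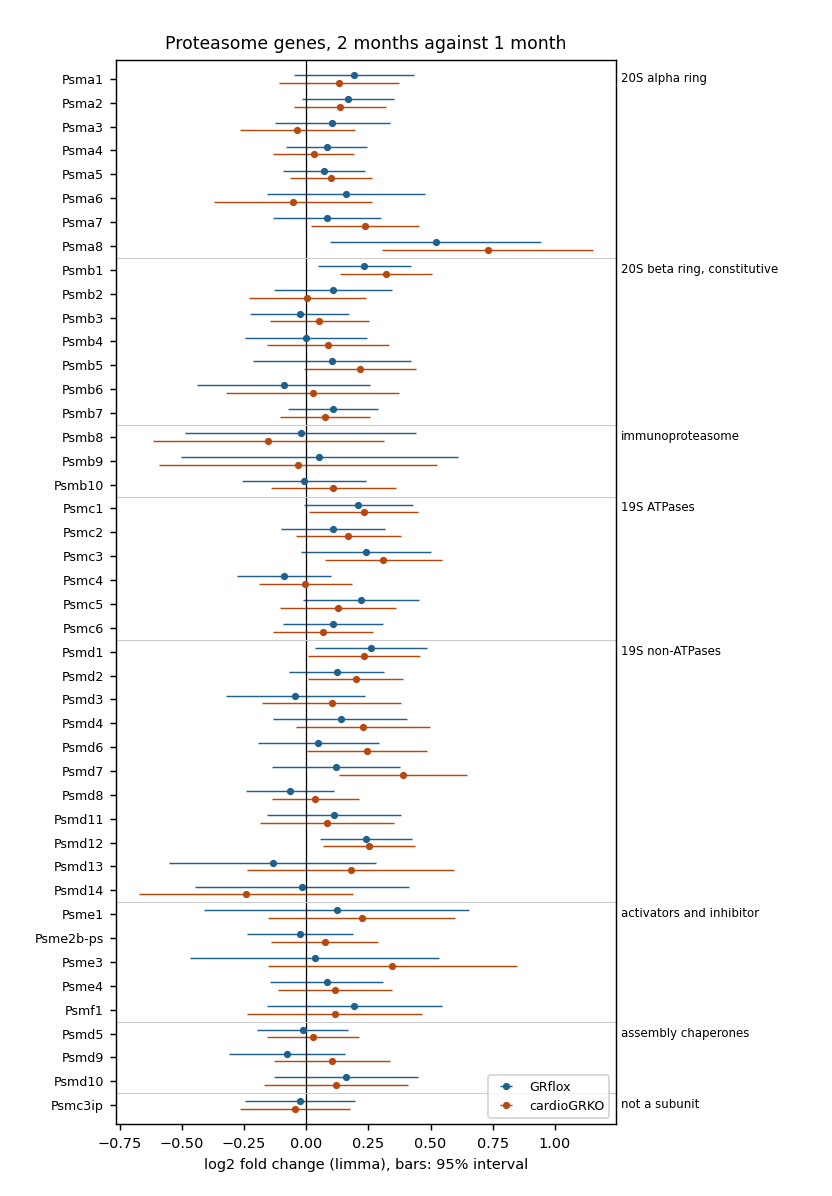
Log2 fold change between 1 and 2 months (x axis, limma, bars are 95% intervals) for each of the 44 genes, grouped by role, in GRflox and in cardioGRKO hearts (3 hearts per group). Psma8 lies at 0.52 and 0.73, and the median of the 44 genes is 0.10 and 0.11.

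In cardioGRKO the lid subunit Psmd7 differed by 0.39 (SE 0.11, adjusted p = 0.158 in limma), Psme3 by 0.35 and the ATPase Psmc3 by 0.31. The probes of Psmd7 disagreed: the averaged age difference was 0.25 on the brightest, -0.01 on the second and -0.27 on the dimmest, and the probes of the ATPases Psmc2 (0.14 and -0.24) and Psmc4 (-0.05 and 0.13) differed in sign as well. In GRflox the scaffold subunit Psmd1 differed by 0.26 (SE 0.10) and Psmd13 by -0.13. At the other end, Psmd14 differed by -0.24 in cardioGRKO, where a single heart was low, and Psmb6 by -0.09 in GRflox. None of the inducible subunits passed: Psmb8 differed by -0.02 in GRflox and -0.15 in cardioGRKO, Psmb9 by 0.05 and -0.03, and Psmb10 by -0.01 and 0.11. Of the others named in every comparison, Psmb5 differed by 0.10 and 0.22, Psmb7 by 0.11 and 0.08, Psme1 by 0.12 and 0.22, Psme2b-ps by -0.03 and 0.07, Psme4 by 0.08 and 0.12, and Psmf1 by 0.19 and 0.11. By role the averaged median was 0.16 for the ATPases, 0.15 for the other regulatory subunits and the activators alike, 0.12 for the alpha subunits, 0.06 for the constitutive beta subunits and 0.01 for the inducible ones and the assembly chaperones.

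From heart to heart Psmb8 and Psmb9 varied together. Over the 12 hearts Pearson's r was 0.91 and Spearman's rho 0.85 (two-sided permutation p = 0.00015 and 0.00074, 0.0015 and 0.0074 after Benjamini-Hochberg adjustment over the 10 pairs among Psmb8, Psmb9, Psmb10, Psme1 and Psme2b-ps). Without the 2 hearts farthest from the median of Psmb8, r was 0.83. After centring on group means it was 0.92, and after centring on slide means 0.95. The other 9 pairs had r between -0.36 and 0.29 and adjusted p of at least 0.949 for r. Among them Psmb8 with Psmb10 had -0.07 and Psmb9 with Psmb10 0.09. Those pairs had 0.69 and 0.64 after centring on group means, and 0.12 and 0.14 after centring on slide means. Psme1 had -0.56 with Psmb8 and -0.57 with Psme2b-ps after centring on group means.

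Markers of leukocytes and other interferon-responsive genes are given beside this, since immune cells express the inducible subunits at high levels. Each gene was centred on its mean over the hearts, and the median over a list taken per heart. The inducible subunits had their 3 highest medians in GRflox heart 2 of 1 month and GRflox hearts 2 and 3 of 2 months. These were 0.37, 0.47 and 0.23. In the same hearts Psmb10 stood at 4.9, 5.0 and 4.9, beside a mean of 5.0 over the 12 hearts. The median over 12 measured genes of MHC class I presentation was also highest in these 3 hearts, at 0.37, 0.18 and 0.19. No other heart exceeded 0.03. The median over 22 interferon response genes did not follow that order. It was 0.50, -0.07 and 0.08 in these hearts. At 1 month it was 0.29 and 0.14 in cardioGRKO hearts 1 and 2 and 0.15 in GRflox heart 3. The median over 8 T cell markers was highest in the 2 arrays of the second scan day, at 0.91 for both. Of these markers 7 were above background on all arrays and none below it on all. On those 2 arrays the median of the inducible subunits was 0.05 and 0.03. Over groups the T cell score ranged from -0.72 to 0.34 and -0.63 to 0.91 at 1 month and from -0.74 to 0.31 and -0.16 to 0.91 at 2 months, GRflox first. The median over 5 B cell markers was also highest on those arrays, at 0.82 and 0.78. That over 8 macrophage markers ranged from -0.27 to 0.26. Of 5 NK cell markers 2 were above background on all arrays. Their median was 0.37 and 0.35 in GRflox hearts 2 and 3 of 2 months. It was -0.05 in GRflox heart 2 of 1 month and 0.35 in cardioGRKO heart 2 of 2 months. Over 4 measured thymocyte markers it was 0.34 in GRflox heart 2 of 1 month and highest, at 0.40, in cardioGRKO heart 2 of 2 months. Over 4 dendritic cell markers it was highest on the arrays of the second scan day, at 0.55 and 0.95. The part of these cells in the levels of Psmb8 and Psmb9 was not tested.

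Genes that work with the proteasome or share its regulation were described from lists. None of the 12 genes of MHC class I presentation passed in any comparison in limma, and 1, 1 and 2 had an unadjusted p under 0.05 at 1 month, at 2 months and in the averaged knockout comparison, against 6.03%, 7.64% and 11.6% of all genes. The nearest in the averaged knockout comparison were the peptide transporter subunit Tap2 at -0.26 (SE 0.08, adjusted p = 0.222) and the class I heavy chain H2-D1 at -0.29 (SE 0.12, adjusted p = 0.402). Among 22 interferon response genes 0 passed in the knockout comparisons in limma, and 0 and 1 had an unadjusted p under 0.05 at 1 and 2 months. Of these genes 19 of 22 lay below 0 at each age, with medians of -0.11 and -0.23, against 43.1% and 45.3% of all genes and medians of 0.04 and 0.03, and 17 to 22 did so at either age under the other scalings. Iigp1, an interferon-inducible GTPase, differed by -0.36 and -0.63 (SE 0.24, adjusted p = 0.841 and 0.553). With age 9 of the 22 fell in the average and 0 rose, among them Oasl2 (log2 change -0.96, SE 0.13, adjusted p = 0.00381), Irf9 (-0.51) and Usp18 (-0.80), while the inducible subunits did not pass. Over all genes 4.59% fell. With each array centred on its median 2 of the 22 fell and their median was -0.58 in place of -0.42, while 9 fell with quantile normalization and 11 with normexp before it.

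Of 20 partners of the proteasome outside the naming pattern, 0 passed in the knockout comparisons in limma. They include receptors, shuttle factors, deubiquitinases and the transcription factor Nfe2l1. At 1 month, at 2 months and in the average 1 gene each had an unadjusted p under 0.05, against 6.03%, 7.64% and 11.6% of all genes. Usp14, a deubiquitinase of the regulatory particle, differed by 0.23 in the average (SE 0.09, adjusted p = 0.355) and the ubiquitin receptor Adrm1 by 0.17 (SE 0.08, adjusted p = 0.446). With age 1 of 20, the shuttle factor Ubqln4, rose in the average by 0.23 (adjusted p = 0.0473 in limma). Over all genes 4.26% rose. None of the 6 ubiquitin and E1 genes passed in any comparison or had an unadjusted p under 0.05. The largest averaged knockout difference was 0.25 for Rps27a. Of 10 muscle ubiquitin ligases 0 passed for the knockout in limma. At 1 month and in the average 2 each had an unadjusted p under 0.05, against 6.03% and 11.6% of all genes. In the average Trim55 differed by 0.68 (SE 0.22, adjusted p = 0.244 in limma) and Trim54 by -0.29. With age 2 of the 10 passed in the average, both higher, against 4.26% of all genes higher. Trim54, a ligase of the sarcomere, rose by 0.77 in GRflox, 1.02 in cardioGRKO and 0.90 in the average. Its adjusted p was 0.0313, 0.027 and 0.00179 in limma. Within GRflox and cardioGRKO 2.1% and 0.721% of all genes passed. Fbxo40 rose by 0.35 in the average (adjusted p = 0.0331 in limma). With each array centred on its median 0 of the 10 ligases passed and their median was 0.08 in place of 0.24, while 2 passed with quantile normalization, with or without normexp.

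Of 7 measured NRF2 targets 0 passed for the knockout in limma and 0 had an unadjusted p under 0.05, with Gclc at -0.13 in the average. In averaged age 1 of the 7, Srxn1, rose by 0.23 (adjusted p = 0.0488 in limma), against 4.26% of all genes higher. The assembly chaperones listed under older names in the files, 3 of 4 Psmg genes, gave 0 passes in every comparison in limma. An unadjusted p under 0.05 was held by 1 of the 3 in the knockout at 2 months, in the averaged knockout and for age in GRflox. Over all genes the shares were 7.64%, 11.6% and 15.9%. The median knockout differences of these chaperones were 0.13 at 1 month and -0.03 at 2 months. Psmb11, the beta subunit of the thymus, did not pass, with an averaged knockout difference of 0.88 and an SE of 0.54.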

How the data were processed

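Whole-heart RNA of 12 mice was labelled with Cy3 and hybridised to one-colour arrays. Per the file headers and the submitters' processing notes, the authors deposited scanner intensity values from Agilent Feature Extraction 9.5; the deposited series table held the same processed signals. The deposited quality flags are yes or no values.

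Uneven spots were left out, spots of a probe averaged, and the log2 of the deposited processed intensity taken minus the 75th percentile of each array. Probes well above background on at least 3 arrays entered, 1 per gene by the highest mean over the arrays. Limma 3.58.1 (R 4.3.3) was fitted with a mean for each group over all 12 arrays, and p-values were adjusted over 21910 genes by Benjamini-Hochberg. Permutation tests used 100000 resamples. The fit was tested on simulated data.

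Genes were named from the files, updated through RefSeq. Named throughout are the catalytic subunits and the activators, and per comparison members that passed and the 2 largest differences in each direction; Psmd13, Psmd14, Psmc3 and single hearts were also named after their values were seen. The members and lists were chosen with earlier results of these data known. Alternatives covered scaling, background, filter, probe choice, slide, scan day, pairing, moderation and left-out hearts. The number of arrays limits the precision.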

Additional observations from a re-analysis of the deposited data

How the results depend on the processing

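With 3 hearts per group, the 95% intervals of 6 genes at 1 month and 5 at 2 months reached beyond a 1.5-fold change. The test, all comparisons included, was repeated under other scalings, filters, probes, blocks and left-out arrays, and no result turned from a call in one direction to a call in the other.

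The median log2 difference of the 44 genes moved with the scaling. With each array centred on its median it was -0.29 for the knockout at 1 month, 0.23 for the change of the effect between the ages, -0.16 for age in GRflox, 0.056 for age in cardioGRKO, -0.17 for the averaged knockout and -0.0633 for averaged age. The median of all genes then was -0.20 for the knockout at 1 month, 0.18 for the change between the ages, -0.13 for age in GRflox and -0.10 for the averaged knockout, since both scalings subtract a constant from each array. With quantile normalization it was -0.0036 for the knockout at 1 month, -0.0175 for the change between the ages, 0.0484 and -0.0002 for age in GRflox and cardioGRKO and 0.0228 for averaged age. Relative to the median of all genes, it then went from -0.0912 to -0.00143 for the knockout at 1 month and from 0.0745 to -0.0264 for the change between the ages. With normexp and quantile normalization it was -0.0054, 0.0328, 0.0088 and 0.0262 for the last 4 of these. Without the 3 arrays that stand apart the knockout median at 2 months was 0.0321. Within the slide of the second scan day, which held 1 cardioGRKO heart of each age, the median for age in cardioGRKO was 0.17. Leaving out 1 heart gave -0.0051 to 0.0925 for the change between the ages. The cause of these moves was not tested.

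Of the 44 genes, 3 passed in averaged age. This became 0 with median centring, after normexp, without the second scan day and without the 3 arrays, 1 with quantile normalization, 5 with probes above background on all arrays or scan day as a block, 7 with a trended and robust prior, and 0 to 4 with 1 heart left out. In the averaged knockout it became 1, Psme4, after normexp, with the all-array filter, with the second brightest probe and with the trended prior, and with that prior 1 gene passed for age in cardioGRKO.

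Over all genes the counts ranged from 0 to 17 for the knockout at 1 month (6), 0 to 82 at 2 months (30), 0 to 2 for the change between the ages (0), 9 to 341 averaged (161), 9 to 784 for age in GRflox (461), 0 to 439 in cardioGRKO (158) and 203 to 2614 averaged (1939).

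Same-numbered hearts of different groups correlated between -0.69 and 0.49 in their deviations from group means. The lowest values, -0.69 and -0.58, each involved an array of the second scan day. These correlations therefore cannot show whether such hearts were paired, and the labels do not say. With the replicate number as a block, 1 of the 44 genes, Psmb1, passed in averaged age in place of 3.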
